A study of Mus musculus with 52 samples.

Results

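The amygdala of mice lacking Mir146, the gene that encodes the microRNA miR-146a (KO), was compared with the amygdala of wild-type mice (WT) at postnatal day 30 (P30). The libraries were taken by the genotype, age and region in their labels and make up 8 of the 52 in the series, 4 KO and 4 WT. The same genotypes in P30 frontal cortex and P30 hippocampus (4 KO and 4 WT in each) and in the amygdala at postnatal day 60 (P60; 4 KO and 3 WT) are set beside them. All animals were mice, no treatment was named for either genotype, and the way the Mir146 allele was made, the strain and any pooling of animals are not stated in the labels. Per the series' design text the animals sampled had different mothers; that text names a P6 stage and a sensory cortex where the sample labels have P60 and frontal cortex, and the labels are followed here. Going by its title, the series concerns brain development, and the comparison asks which transcripts differ when the microRNA gene is absent.

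miR-146a is a microRNA, a short RNA that pairs through its seed with messenger RNAs and lowers their level or translation. Transcription of its gene is raised by NF-kB after Toll-like or interleukin receptors are engaged. Its best known targets are Traf6, which builds ubiquitin chains, and the kinase Irak1, which both carry that signal onward, and it is therefore known as a brake on innate immune signalling. In the brain it has been studied in microglia and astrocytes and in neural progenitors, where Notch pathway genes are among its reported targets. The amygdala, a group of nuclei in the temporal lobe, processes fear and other emotional learning and holds excitatory neurons, GABA-releasing neurons and glia.

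The mature sequences are shown because the same seed is also carried by a miRNA from another chromosome. Bases 2 to 8, in capitals, are the seed. Among 1738 mature mouse miRNAs in RefSeq (GRCm38.p6) these 2 share it, miR-146a-5p from chr11:43374435-43374456 on the minus strand and miR-146b-5p from chr19:46342790-46342811 on the plus strand.
mmu-miR-146a-5p: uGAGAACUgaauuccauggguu
mmu-miR-146b-5p: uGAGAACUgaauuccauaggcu

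The seed matches in the 3′ untranslated regions of Traf6 and Irak1 are shown because these are the classical targets whose levels are given further on. The capitals mark the letters AGTTCTCA, which pair with bases 2 to 8 and add an A opposite base 1, or the shorter GTTCTCA. The windows are from GENCODE M21 on GRCm38, and a match of letters is a description, not a measured site.
Traf6 site A: ctctggtgttgAGTTCTCAtttagttgact
Traf6 site B: tggaaggcttaAGTTCTCAagtactccctc
Traf6 site C: ctttggagtctAGTTCTCAgggagccctac
Traf6 site D: tttgctactgcAGTTCTCAaacatggaagt
Irak1 site A: tcagaggtcaaAGTTCTCAtgcttggaagt
Irak1 site B: tcatgcttggaAGTTCTCAtagtgtgcaaa
Irak1 site C: tggaccctgctGTTCTCAgaatgtgaacac
The Traf6 windows lie on the plus strand at chr2:101697948-101697977, chr2:101698012-101698041, chr2:101698824-101698853 and chr2:101701348-101701377, and the Irak1 windows on the minus strand at chrX:74015382-74015411, chrX:74015366-74015395 and chrX:74015275-74015304. Irak1 sites A and B lie so close that their windows overlap.

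Values are normalised read counts, close to CPM (counts scaled to library size), at a depth of 6696362 to 8141105 recovered reads in KO libraries and 5905458 to 7004553 in WT libraries. Of 48526 genes listed, 18985 reached the minimum of reads and were tested by limma on log2(value + 1). A gene is said to have risen or fallen only where its Benjamini-Hochberg adjusted p was below 0.05. By Xist and Y-linked transcripts, the sexes were unequal: 3 KO animals were female and 1 was male, while 1 WT animal was female and 3 were male. The region label was checked against 13 amygdala markers: 7 had their highest median in the amygdala among the 3 regions. These include Esr1, the oestrogen receptor gene (amygdala median 35.1, frontal cortex 4.30, hippocampus 2.54), and Lypd1 (190.6, 28.2 and 31.4). Of the other markers 3 were highest in the hippocampus and 3 in the frontal cortex. Among the WT libraries replicate 3 stood apart. Its median correlation with the other amygdala libraries was 0.972, against 0.984 to 0.988 for the others, and its mean amygdala marker z score was 0.04 against 0.56 to 0.80. Of the amygdala, neocortex and hippocampus lists, the neocortex one had its highest score (0.24), whereas the amygdala list was highest in every other amygdala library. Summed myelin genes of WT replicate 3 were at 7388, against 1542 to 2506 in the KO libraries and 1939 to 2862 in the other WT libraries. In WT replicate 1 the choroid plexus genes summed to 1421, against 24.4 to 32.7 in the KO libraries and 29.6 to 57.9 in the other WT libraries. The summed hypothalamic genes were low in WT replicate 3 (4.13) and KO replicate 2 (4.01), against 32.8 to 64.9 in the others. Only 4 of 10 listed genes were tested. Trh, described further on, is among them and was low in the same libraries. The mean z score of these genes was 0.25 in WT replicate 3 and -0.07 in KO replicate 2, against 0.09 to 1.62 in the others. By this score WT replicate 3 was within the range of the others. Medians of gene lists are therefore given with all libraries, without WT replicate 3 and without WT replicates 1 and 3, and the last of these was chosen after seeing the data. Leaving out KO replicate 2 moved 4 list medians beyond their spread, against 1 without WT replicate 3 and 3 without WT replicates 1 and 3.

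Mir146 itself (ENSMUSG00000065601; chromosome 11, 43374397 to 43374461, minus strand, GRCm38) had 0 reads in all 8 libraries. Libraries made from poly-A RNA miss mature microRNAs, and with WT also at 0 the genotype labels cannot be checked on this gene.

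In all, 5 genes differed at the threshold, and they lie on chromosome 11, the chromosome of Mir146. In KO amygdala Lyrm7 and Hint1 rose (2 genes, 0.0105% of those tested) and Pttg1, 9930111J21Rik2 and Gm2a fell (3 genes, 0.0158%). Of the 5, the largest log2 changes were those of Pttg1 and 9930111J21Rik2, whose transcripts were nearly lost. The number called higher moved to 5 without WT replicate 3, where Ccng1, Ptgs2 and Hs3st4 were added, and to 1 without WT replicates 1 and 3. In bulk tissue, a change in the number of cells of a type and a change in RNA per cell were not measured apart for any of these genes, and neither was tested.

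Pttg1 (ENSMUSG00000020415; chromosome 11, 43420250 to 43426251, minus strand) encodes securin, which holds separase inactive until sister chromatids part. Its normalised read counts were 0.69, 0.63, 0.25 and 0.45 in the 4 KO libraries and 7.32, 8.17, 7.75 and 6.91 in the 4 WT libraries. Every KO library was far below every WT library, with 15 reads in all KO libraries together and 193 in all WT libraries. Pttg1 averaged 0.505 ± 0.198 in KO and 7.54 ± 0.544 in WT (SD, n = 4 each), 14.9-fold lower in KO (log2 fold change -2.51, SE 0.171, limma adjusted p = 1.13e-09). No call was made for the genes that act with securin: separase, Espl1, averaged 0.725 ± 0.524 in KO libraries and 1.11 ± 0.434 in WT libraries (limma adjusted p = 0.639). The cohesin subunit Rad21 averaged 90.7 ± 4.06 in KO libraries and 89.0 ± 1.62 in WT libraries (limma adjusted p = 0.932). The summed cell cycle and separase genes were at 500.1 to 516.1 in KO and 510.5 to 533.2 in WT libraries. That sum holds Pttg1 itself.

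9930111J21Rik2 (ENSMUSG00000069892; chromosome 11, 49015874 to 49051242, minus strand) has no assigned function in the files. Its values were 0.28, 0, 0.38 and 0.15 in KO libraries and 7.18, 7.71, 12.39 and 8.19 in WT libraries, and the groups were widely apart. It averaged 0.203 ± 0.165 in KO (6 reads in all) and 8.87 ± 2.38 in WT (224 reads), 43.8-fold lower in KO (log2 fold change -3.02, SE 0.209, limma adjusted p = 1.13e-09). A close copy, 9930111J21Rik1, is 99.0% identical over 3221 aligned bases of transcript, so reads of the copies may be split between them and both values are uncertain. 9930111J21Rik1 averaged 1.69 ± 0.461 in KO and 1.62 ± 0.488 in WT, with a log2 fold change of 0.04 (limma adjusted p = 0.977), so the difference stood in one copy as counted. The interferon-induced immunity-related GTPases of the same list, Irgm1, Irgm2 and Igtp, which act against intracellular pathogens, had log2 fold changes of -0.16, -0.35 and -0.39 and were not called.

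Lyrm7 (ENSMUSG00000020268; chromosome 11, 54826866 to 54860916, minus strand) encodes a mitochondrial chaperone that holds the Rieske iron-sulfur protein before it enters respiratory complex III. Its values were 22.64, 22.03, 21.03 and 18.84 in KO libraries and 9.99, 9.86, 9.47 and 7.55 in WT libraries. The lowest KO library was above the highest WT library, and the mean of 21.1 ± 1.67 in KO against 9.22 ± 1.13 in WT was 2.29-fold higher in KO (log2 fold change 1.12, SE 0.161, limma adjusted p = 0.00177). Its client Uqcrfs1, the Rieske protein itself, averaged 20.2 ± 3.61 in KO and 18.4 ± 1.78 in WT. The core subunit Uqcrc1 averaged 81.5 ± 4.10 in KO and 76.0 ± 7.55 in WT. Neither was called. Of 14 complex III genes 10 lay above 0, with a median log2 fold change of 0.05 (0.09 without WT replicate 3 and 0.10 without both), and their summed level of 597 to 640 in KO libraries did not overlap the 545 to 594 of WT libraries. That sum holds Lyrm7 itself. KO replicate 4 (596.67) and WT replicate 3 (593.84) differed by less in the sum than in Lyrm7 alone (18.84 and 9.47). Without Lyrm7 the sums of the groups overlap, so their separation says nothing of the other genes.

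Hint1 (ENSMUSG00000020267; chromosome 11, 54866383 to 54870501, plus strand) encodes a histidine triad protein that cleaves purine phosphoramidates. It was at 80.9, 74.6, 75.5 and 76.4 in KO libraries and at 56.2, 55.5, 52.5 and 55.3 in WT libraries. Both groups were tight and did not overlap, and Hint1 averaged 76.9 ± 2.78 in KO and 54.9 ± 1.61 in WT, 1.40-fold higher in KO (log2 fold change 0.48, SE 0.0719, limma adjusted p = 0.00256). Without both WT replicates 1 and 3 its log2 fold change was 0.47 and the call ended (limma adjusted p = 0.125). The related hydrolases Hint2 and Hint3 averaged 5.02 ± 0.583 and 13.6 ± 1.27 in KO, against 4.28 ± 0.838 and 11.3 ± 1.41 in WT, and were not called.

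Gm2a (ENSMUSG00000000594; chromosome 11, 55098115 to 55113029, plus strand) encodes the activator that presents GM2 ganglioside to hexosaminidase A in the lysosome. Its values were 56.6, 52.8, 53.3 and 54.4 in KO libraries and 69.8, 66.0, 82.5 and 75.5 in WT libraries. The groups did not overlap, with 54.3 ± 1.67 in KO and 73.4 ± 7.18 in WT (log2 fold change -0.42, SE 0.0777, limma adjusted p = 0.0426). This was the weakest call: it ended without any single library except WT replicate 2 (7 of 8 fits, limma adjusted p up to 0.255), while the value ranged from -0.37 to -0.47 over all alternatives. Hexa, a subunit of that enzyme, averaged 32.3 ± 2.23 in KO and 29.5 ± 3.07 in WT. The 13 sphingolipid breakdown genes had a median log2 fold change of 0.01 (0.05 without WT replicate 3 and 0.01 without both).

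**Figure D1:**
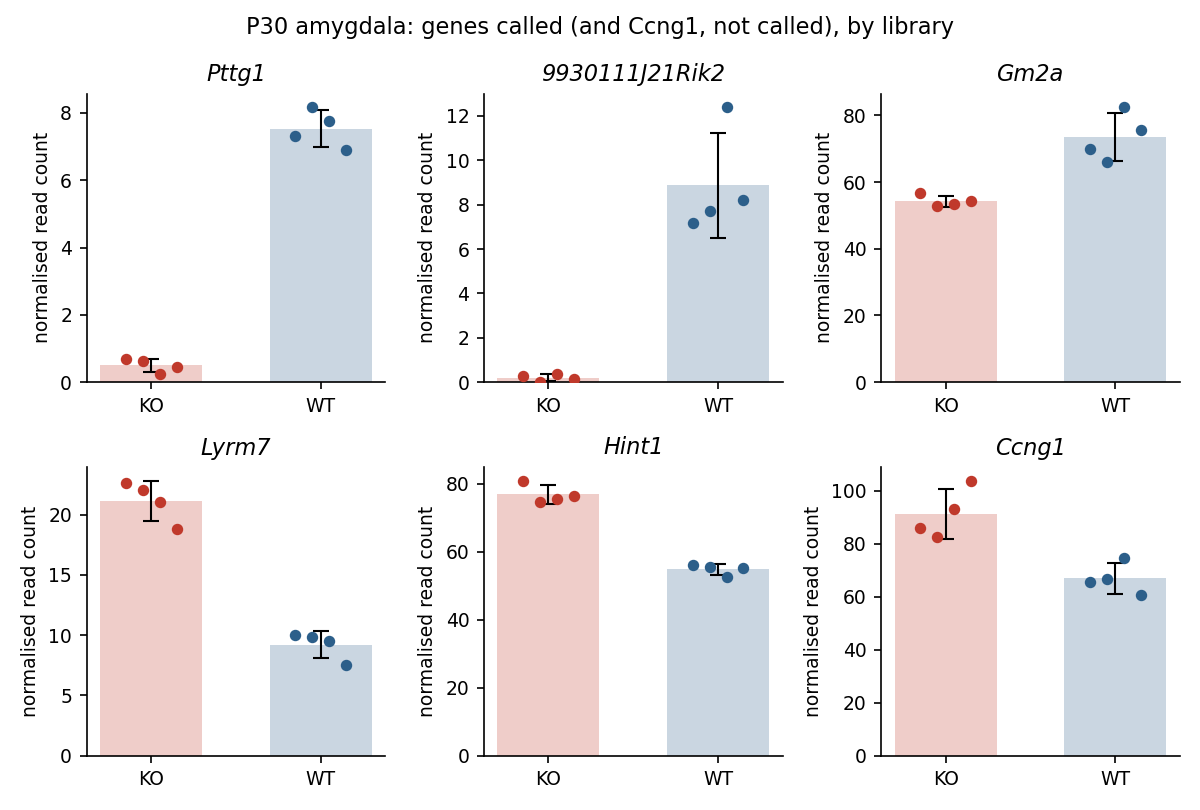
Normalised read counts of the 5 genes called and of Ccng1, which was not called, in each P30 amygdala library; points are libraries, KO on the left and WT on the right, and bars with whiskers are the mean and SD. Pttg1 and 9930111J21Rik2 sit below 1 in every KO library and above 6 in every WT library, and in none of the 6 genes do the groups overlap.

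The called genes were all within 12 Mb of Mir146. Pttg1 starts 45.9 kb from it, 9930111J21Rik2 lies 5.64 Mb away, and Lyrm7, Hint1 and Gm2a lie 11.45, 11.49 and 11.72 Mb away, within a stretch of 271 kb. Within 15 Mb on either side of Mir146, 224 genes were tested, of which 5 (2.23%) were called. In the rest of chromosome 11 (1146 genes) and on the other chromosomes (17615 genes) 0 were called. An unadjusted p below 0.05 was found for 19.2% of the genes in that window, 9.25% in the rest of chromosome 11 and 9.75% elsewhere. The 4 KO and 4 WT libraries did not overlap for 13.4% of genes in the window, 6.37% in the rest of the chromosome and 6.58% elsewhere.

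Most genes close to Mir146 were not called. Slu7, a splicing factor that starts 0.059 Mb away, beside Pttg1, averaged 61.1 ± 1.60 in KO and 53.4 ± 2.28 in WT (log2 fold change 0.19, limma adjusted p = 0.294), with the groups apart. Gabrb2, a GABA-A receptor subunit on the other side of Mir146, was at 161, 154, 155 and 141 in KO libraries and 114, 134, 105 and 126 in WT libraries, again with no overlap (log2 fold change 0.36, limma adjusted p = 0.294). Ccng1, cyclin G1, a target of p53, was at 86.1, 82.4, 93.0 and 103.8 in KO libraries and 65.7, 66.6, 74.7 and 60.7 in WT libraries (log2 fold change 0.44, SE 0.0882, limma adjusted p = 0.116). It was the gene nearest to the threshold, and it passed with a sex covariate (log2 fold change 0.51, limma adjusted p = 0.0110) and without WT replicate 3 (0.49, limma adjusted p = 0.0352). Around Gm2a, Tnip1, an inhibitor of NF-kB activation, averaged 31.8 ± 2.63 in KO and 21.9 ± 3.76 in WT (log2 fold change 0.53). Anxa6, a calcium-binding annexin, averaged 56.0 ± 2.62 in KO and 70.8 ± 6.06 in WT (log2 fold change -0.33). Fat2, an atypical cadherin, averaged 0.995 ± 0.620 in KO and 3.21 ± 0.966 in WT (log2 fold change -1.11), each with limma adjusted p = 0.212. Sparc, a secreted glycoprotein of the matrix made by glia, averaged 207.6 ± 32.8 in KO and 317.3 ± 57.2 in WT (log2 fold change -0.61, limma adjusted p = 0.225). In all of these the groups were apart, as in 13.4% of the genes in the window, so they do not stand for the neighbours as a whole. Atp10b, Ccnjl, Pwwp2a and Ttc1 start nearer to Mir146 than Gabrb2 does, and their groups overlapped. Their log2 fold changes were -0.43, -0.25, -0.01 and 0.03.

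**Figure D2:**
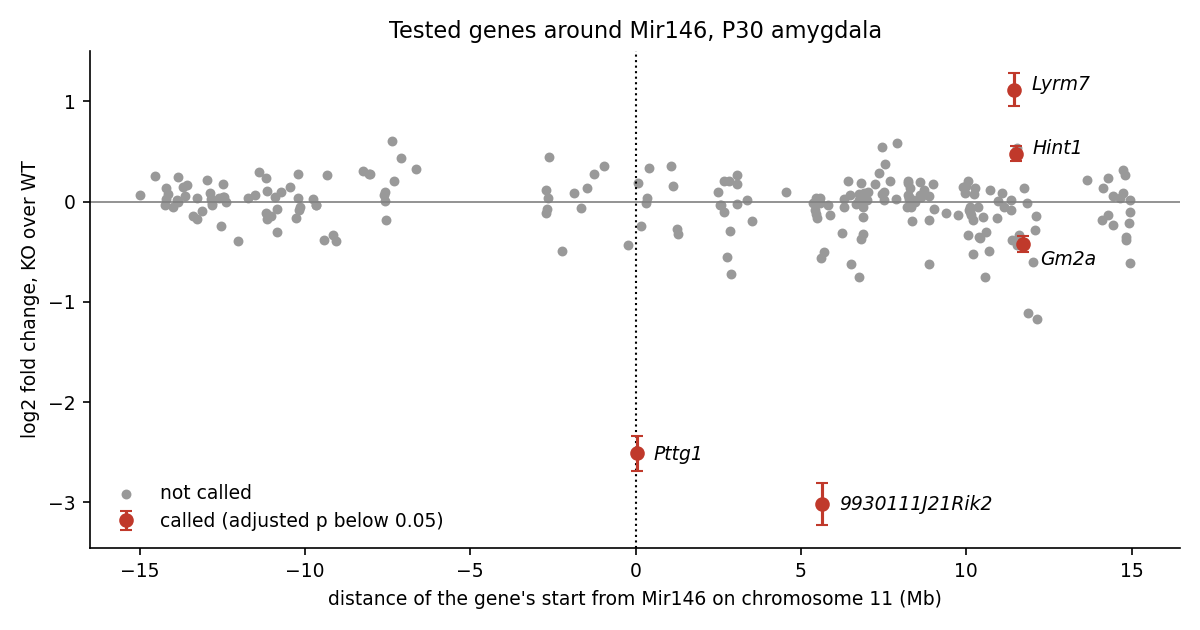
Log2 fold change (KO over WT) of every tested gene within 15 Mb of Mir146 on chromosome 11 against the distance of its start from Mir146 in Mb; red points with SE bars are the called genes. Lyrm7, Hint1 and Gm2a stand together near 11.5 Mb, and 9930111J21Rik2 and Pttg1 are far below all others.

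The same genes were read in the other P30 regions and in the amygdala at P60. The same animal number had the same sex in each P30 region, so the regions may share animals and are set side by side rather than counted as independent support. Pttg1 had log2 fold changes of -2.38 (frontal cortex), -2.50 (hippocampus) and -2.74 (P60 amygdala), 9930111J21Rik2 of -2.45, -2.47 and -2.65, and Lyrm7 of 1.00, 1.43 and 1.11, all called there. Calls numbered 3 in the frontal cortex (0.0158% of genes tested), 6 in the hippocampus (0.0316%) and 4 of 19256 in the P60 amygdala (0.0208%). In the P60 amygdala Pttg1 averaged 0.438 ± 0.403 in KO (n = 4) and 8.33 ± 0.108 in WT (n = 3), and Lyrm7 19.8 ± 1.01 in KO and 8.68 ± 1.43 in WT.

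Hint1 was called in the P30 amygdala and in none of the other 3 settings. In frontal cortex it averaged 56.0 ± 5.52 in KO and 46.7 ± 1.88 in WT (log2 fold change 0.25). In the hippocampus it averaged 58.8 ± 4.28 in KO and 53.5 ± 3.88 in WT (0.13). In the P60 amygdala it averaged 91.0 ± 12.1 in KO and 77.0 ± 10.3 in WT (0.24). The P30 amygdala effect minus the hippocampal one was 0.34 (SE 0.102), which did not pass the test of the difference over all genes (limma adjusted p = 0.618). Gm2a was lower in KO in every setting, with log2 fold changes of -0.29 (frontal cortex), -0.59 (hippocampus) and -0.33 (P60 amygdala), and of these only the hippocampal one was called. Tnip1, not called anywhere, had 0.53, 0.45 and 0.49. Cdc42se2, a small effector of the GTPase Cdc42 that fell in the hippocampus (58.2 ± 3.72 in KO and 89.3 ± 10.2 in WT), was at 84.7 ± 9.31 in KO and 83.8 ± 8.14 in WT amygdala at P30. The difference between these effects was 0.62 on the log2 scale (limma adjusted p = 0.185), the lowest of all genes. At P60 in the amygdala Cdc42se2 was at 67.7 ± 2.45 in KO and 90.2 ± 3.70 in WT (log2 fold change -0.41, limma adjusted p = 0.330). Kif3a, a motor subunit of ciliary transport, was called in the P60 amygdala (log2 fold change -0.40, limma adjusted p = 0.0286) and was at 168.5 ± 3.77 in KO and 192.5 ± 21.95 in WT at P30 (-0.18, limma adjusted p = 0.410). No gene was called for a difference between the amygdala and either other region. An unadjusted p below 0.05 was found for 637 genes (3.36%) against the frontal cortex, with a lowest limma adjusted p of 0.999, and for 1166 (6.14%) against the hippocampus.

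**Figure D3:**
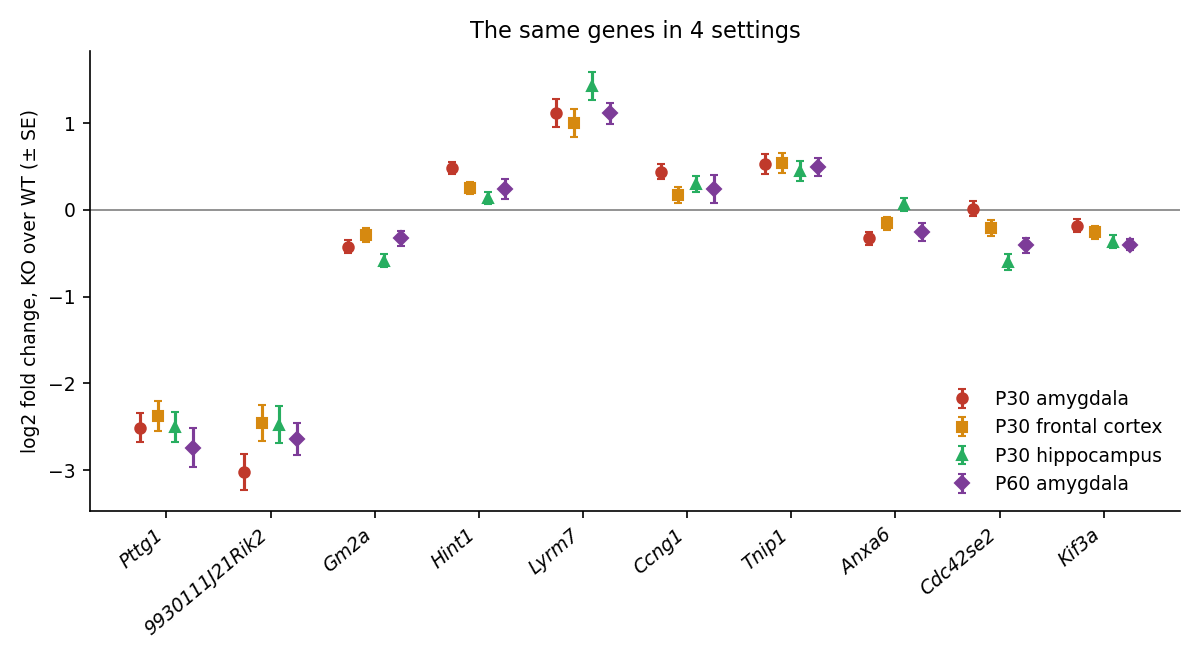
Log2 fold change (KO over WT, with SE) of the called genes and of chromosome 11 neighbours in the P30 amygdala, P30 frontal cortex, P30 hippocampus and P60 amygdala. Pttg1, 9930111J21Rik2 and Lyrm7 stay far from 0 on the same side in all 4 settings, while Hint1 is highest in the P30 amygdala and Cdc42se2 is near 0 there alone.

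Genes outside chromosome 11 came no closer than a limma adjusted p of 0.212. Those named here had the smallest p among genes with non-overlapping groups, and none was called. Neurod6, a transcription factor of cortical excitatory neurons, was at 25.1, 28.04, 22.4 and 48.5 in KO libraries and 13.2, 16.3, 12.4 and 10.3 in WT libraries (log2 fold change 1.14, SE 0.248). Sema3e, a secreted guidance cue, was at 45.0, 23.3, 29.6 and 62.5 in KO libraries and 14.9, 16.0, 19.5 and 16.1 in WT libraries (log2 fold change 1.13). In both genes KO replicate 4 was the highest library and the KO spread was wide. Htr1a, the inhibitory serotonin 1A receptor, was at 30.9, 19.7, 20.7 and 29.2 in KO libraries and 17.5, 16.8, 9.29 and 15.3 in WT libraries (0.74, SE 0.174). Cbln1, a synapse organiser, averaged 6.24 ± 2.08 in KO and 2.45 ± 0.777 in WT (1.06, SE 0.247). The regional differences of these effects were 0.91 and 1.00 for Neurod6, 0.93 and 0.93 for Sema3e and 0.76 and 0.62 for Htr1a, against the frontal cortex and the hippocampus in that order, none of them called.

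Atp1b1, a subunit of the sodium pump, averaged 511.6 ± 17.2 in KO and 404.6 ± 34.0 in WT (log2 fold change 0.34), and Lrpap1, a chaperone of lipoprotein receptors, 129.0 ± 6.22 in KO and 105.4 ± 6.50 in WT (0.29). Arl6ip5 averaged 72.3 ± 7.03 in KO and 56.6 ± 3.20 in WT (0.34), and Bbs4, a part of the BBSome that serves cilia, 44.1 ± 0.712 in KO and 35.0 ± 3.06 in WT (0.33). On the lower side were Map3k20, a stress-activated kinase, with 25.7 ± 1.11 in KO and 33.9 ± 1.13 in WT (log2 fold change -0.39), and Slc9a3r1, a scaffold protein, with 34.1 ± 3.31 in KO and 47.6 ± 10.0 in WT (-0.45). Maml1, a co-activator of Notch that lies 6.88 Mb from Mir146, averaged 18.4 ± 1.07 in KO and 23.3 ± 1.69 in WT (-0.32), and Ubxn1 26.7 ± 1.40 in KO and 34.7 ± 3.11 in WT (-0.36). Gstk1, a mitochondrial glutathione transferase, Dhx16, a splicing helicase, and Rpph1, the RNA of ribonuclease P, had log2 fold changes of -0.52, -0.44 and -0.34. The immune genes of this group were C1qa, a chain of complement C1q, with 10.6 ± 1.53 in KO and 16.0 ± 3.48 in WT (-0.53), and Tnfrsf1b, a receptor of tumour necrosis factor, with 1.79 ± 0.399 in KO and 3.81 ± 1.28 in WT (-0.77). All of these had limma adjusted p = 0.212. Over all genes, 1133 (5.97%) had an unadjusted p below 0.05 and a higher KO mean and 734 (3.87%) a lower one. The KO libraries lay wholly above WT for 783 genes (4.12%) and wholly below for 479 (2.52%).

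With all libraries none of the reported targets of miR-146a was called, and without WT replicate 3 Ptgs2, the inducible cyclooxygenase, was called higher (log2 fold change 0.76, limma adjusted p = 0.0295). Traf6 was at 24.6, 22.03, 27.04 and 29.0 in KO libraries and 29.0, 22.5, 24.8 and 26.7 in WT libraries, the same range in both genotypes (log2 fold change -0.01, SE 0.087, limma adjusted p = 0.991). Irak1 was at 35.9, 39.3, 42.7 and 47.6 in KO libraries and 45.2, 44.7, 51.8 and 41.4 in WT libraries (log2 fold change -0.15, limma adjusted p = 0.678), and the groups overlapped. Irak2, a related kinase, averaged 14.3 ± 2.41 in KO and 14.3 ± 2.07 in WT, and Numb, an inhibitor of Notch, 48.9 ± 10.8 in KO and 56.2 ± 17.5 in WT. Notch1 was the lowest of these relative to WT, at 42.1, 42.8, 47.2 and 43.8 in KO libraries and 53.1, 52.1, 68.0 and 49.3 in WT libraries, with the groups apart but no call (log2 fold change -0.32, limma adjusted p = 0.294). Of 19 reported targets tested 9 lay above 0 and 10 below, with 0 called. At an unadjusted p below 0.05, 2 were higher and 2 lower, beside 5.97% and 3.87% of all genes. Without WT replicate 3, which had the highest summed level of these targets among WT libraries, 11 lay above 0 and 8 below (median 0.07), and without WT replicates 1 and 3 these were 14 and 5 (median 0.06). Leaving out WT replicate 2 instead moved the median the other way, to -0.06. With all libraries the median log2 fold change of the targets was -0.00, beside 9511 above, 9474 below and a median of 0.00 over all genes.

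Seed matches were counted in the annotated 3′ untranslated regions of 14156 tested genes, on the sense strand, as AGTTCTC or GTTCTCA, which overlap in AGTTCTCA. At least 1 match was held by 3183 genes (22.5%), and AGTTCTCA by 719 (5.08%). Of genes with a match 55.9% lay above 0 (median log2 fold change 0.02), of those with AGTTCTCA 56.6% (0.03) and of those with none 52.6% (0.01). Genes with a match have longer regions, with medians of 2607, 2889 and 1133 bases. Among regions of 2000 to 4000 bases, 56.1% of 1302 genes with a match and 56.4% of 2384 without lay above 0, with medians of 0.02 in both. An unadjusted p below 0.05 with a higher KO mean was found for 9.52% of genes with a match, 11.1% of those with AGTTCTCA and 6.81% of those with none. Among regions of 2000 to 4000 bases these shares were 10.8% with a match and 8.64% without, and no test of them was run. Of the called genes only Gm2a, which fell, holds a match, 2 of the shorter kind. Of the 19 reported targets 13 hold one, Traf6 with 4 and Irak1 with 3.

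Genes of the pathway around these kinases lay on both sides of 0. Of 16 Toll-like receptor signalling genes 9 lay above 0 (median log2 fold change 0.00, 0.01 without WT replicate 3 and 0.10 without both). The lipopolysaccharide receptor Tlr4 averaged 2.99 ± 0.818 in KO and 2.96 ± 0.647 in WT, its adaptor Myd88 2.83 ± 1.01 in KO and 1.89 ± 0.28 in WT, and Tlr3, a sensor of double-stranded RNA, 21.1 ± 1.87 in KO and 26.8 ± 8.68 in WT. Of 15 NF-kB subunits and inhibitors 8 lay above 0 (median 0.04, 0.06 without WT replicate 3, 0.03 without both and -0.08 without WT replicate 2). Rela was at 21.5 ± 1.42 in KO and 24.6 ± 3.53 in WT, Nfkb1 at 25.4 ± 2.26 in KO and 28.5 ± 1.66 in WT and Nfkb2 at 2.11 ± 0.774 in KO and 2.59 ± 0.340 in WT. Only 7 of 16 cytokines and chemokines were tested. Their median was -0.10 with 5 below 0, but 0.01 with 3 below 0 both without WT replicate 3 and without WT replicates 1 and 3. Among them was Cx3cl1 at 421.6 ± 47.4 in KO and 367.7 ± 11.6 in WT. Tgfb1 and Il18 had log2 fold changes of 0.11 and -0.29. Tnf, Il1b and Il6 stayed below the minimum, at no more than 0.13, 0.52 and 0.17 in any library. None of the genes of these 3 lists was called.

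Glial genes lay lower in KO amygdala, none past the threshold. All 18 genes of microglia and macrophages, the immune cells of the brain, lay below 0 (median log2 fold change -0.26), 9 of them with an unadjusted p below 0.05 against 3.87% of all genes, and 4 with KO wholly below WT against 2.52%. Csf1r, the receptor that microglia need to survive, was at 53.3, 66.7, 62.9 and 71.0 in KO libraries and 69.3, 67.8, 92.3 and 75.5 in WT libraries. Cx3cr1, the fractalkine receptor, was at 31.3, 38.8, 34.1 and 33.1 in KO libraries and 43.2, 38.8, 48.7 and 42.3 in WT libraries. P2ry12, a purine receptor of resting microglia, was at 32.2, 42.3, 37.3 and 32.2 in KO and 45.3, 38.4, 49.2 and 47.2 in WT. Of these only Cx3cr1 had groups that did not overlap, and by a small margin (38.81 in the highest KO library and 38.84 in the lowest WT library). Without WT replicate 3, which had the highest value of the 4 WT libraries for each of these 3 genes, the microglial median was -0.17 with 17 genes lower and 6 with an unadjusted p below 0.05 (3.22% of all genes in that fit). Without WT replicates 1 and 3 it was -0.18, with 15 lower and 2 at that level (2.49%). Without KO replicate 2 it was -0.36, further below 0 than with all libraries. The summed list ran from 291 to 364 in KO and 355 to 488 in WT libraries.

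Astrocyte genes showed the same order. All 15 lay below 0 (median -0.24; 9 with an unadjusted p below 0.05, against 3.87% of all genes, and 4 with KO wholly below WT, against 2.52%). The summed list of 7081 to 7864 in KO did not overlap the 7979 to 11323 of WT. Gfap, the intermediate filament of astrocytes, was at 75.2, 100.8, 101.8 and 106.2 in KO libraries and 126.0, 105.9, 153.4 and 130.3 in WT libraries (log2 fold change -0.42). The water channel Aqp4 averaged 215.7 ± 42.5 in KO and 270.4 ± 82.4 in WT, and Aldh1l1, a folate enzyme, 21.7 ± 1.41 in KO and 23.8 ± 2.81 in WT. Sox9, a transcription factor of astrocytes, was at 53.6, 43.6, 49.95 and 48.8 in KO libraries and 69.1, 55.6, 70.7 and 62.0 in WT libraries, wholly apart (-0.39). The median was -0.15 without WT replicate 3 and -0.17 without WT replicates 1 and 3, with all 15 genes below 0 each time. Without KO replicate 2 it was -0.29, further below 0 than with all libraries. The number with an unadjusted p below 0.05 was 4 without WT replicate 3 (3.22% of all genes) and 2 without both (2.49%). Oligodendrocyte precursor genes, 11 of 11 below 0 (median -0.30), summed to 1010 to 1171 in KO and 1174 to 1349 in WT libraries. Pdgfra, their growth factor receptor, averaged 92.7 ± 6.61 in KO and 111.9 ± 17.1 in WT, the proteoglycan Cspg4 at 30.8 ± 3.47 in KO and 38.0 ± 1.498 in WT and the transcription factor Olig1 at 35.5 ± 1.78 in KO and 45.0 ± 9.13 in WT. Their median was -0.19 without WT replicate 3 and -0.17 without both.

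The lower myelin and vascular genes moved with the WT libraries that stood apart. All 16 myelin genes lay below 0 (median -0.52), but Mbp, myelin basic protein, was at 389, 671, 535 and 659 in KO libraries and 736, 577, 2151 and 517 in WT libraries. Mog, a surface glycoprotein of myelin, averaged 15.6 ± 3.96 in KO and 27.8 ± 22.4 in WT. The median was -0.12 without WT replicate 3 and 0.03 without WT replicates 1 and 3. Endothelial genes lay below 0 in 15 of 15 (median -0.26) and pericyte genes in 9 of 10 (-0.20). Pecam1, an adhesion molecule of endothelium, averaged 21.6 ± 5.08 in KO and 28.1 ± 8.25 in WT, the tight junction gene Cldn5 at 6.47 ± 1.38 in KO and 9.84 ± 2.31 in WT and the growth factor receptor Flt1 at 91.5 ± 8.48 in KO and 112.8 ± 32.8 in WT. The endothelial and pericyte medians were -0.09 and -0.05 without WT replicate 3 and -0.04 and 0.02 without both. Choroid plexus genes, 13 of 13 below 0 (median -0.86), were led by Ttr, the thyroxine carrier, at 6.35, 2.63, 3.13 and 2.09 in KO libraries and 1096, 14.2, 27.02 and 5.78 in WT libraries. Kl averaged 6.90 ± 1.99 in KO and 23.3 ± 32.8 in WT, and Folr1, a folate receptor, 0.203 ± 0.165 in KO and 2.98 ± 5.52 in WT. The choroid plexus median was -1.28 without WT replicate 3, -0.10 without WT replicate 1 and -0.12 without both.

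Complement and antigen presentation genes were below 0 in 9 of 9 (median -0.31, 4 with an unadjusted p below 0.05, against 3.87% of all genes). The chains of C1q, which microglia make and which tags synapses, averaged 10.6 ± 1.53 in KO and 16.0 ± 3.48 in WT for C1qa, 25.6 ± 3.56 in KO and 31.8 ± 4.73 in WT for C1qb, and 17.2 ± 3.03 in KO and 24.0 ± 3.55 in WT for C1qc (log2 fold changes -0.53, -0.30 and -0.46). The groups were apart for C1qa and C1qc and overlapped for C1qb. Without WT replicate 3 the median was -0.24, with 8 genes lower and 3 at an unadjusted p below 0.05 (3.22% of all genes in that fit). Without both it was -0.12, with 5 lower and 2 at that level (2.49%). Interferon-stimulated genes lay below 0 in 17 of 18 (median -0.34). Ifit1 was at 4.82 ± 1.20 in KO and 6.61 ± 2.95 in WT, Ifit3 at 2.52 ± 0.715 in KO and 4.01 ± 3.66 in WT and Isg15 at 2.49 ± 1.06 in KO and 3.12 ± 1.06 in WT. Their median was -0.12 without WT replicate 3 and -0.04 without both. The lower microglial and complement genes stood beside the same WT replicate 3 and the unequal sexes; with a sex covariate the medians were -0.27 for microglia, -0.21 for astrocytes and -0.26 for complement genes, and the part of either in the difference was not tested.

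**Figure D4:**
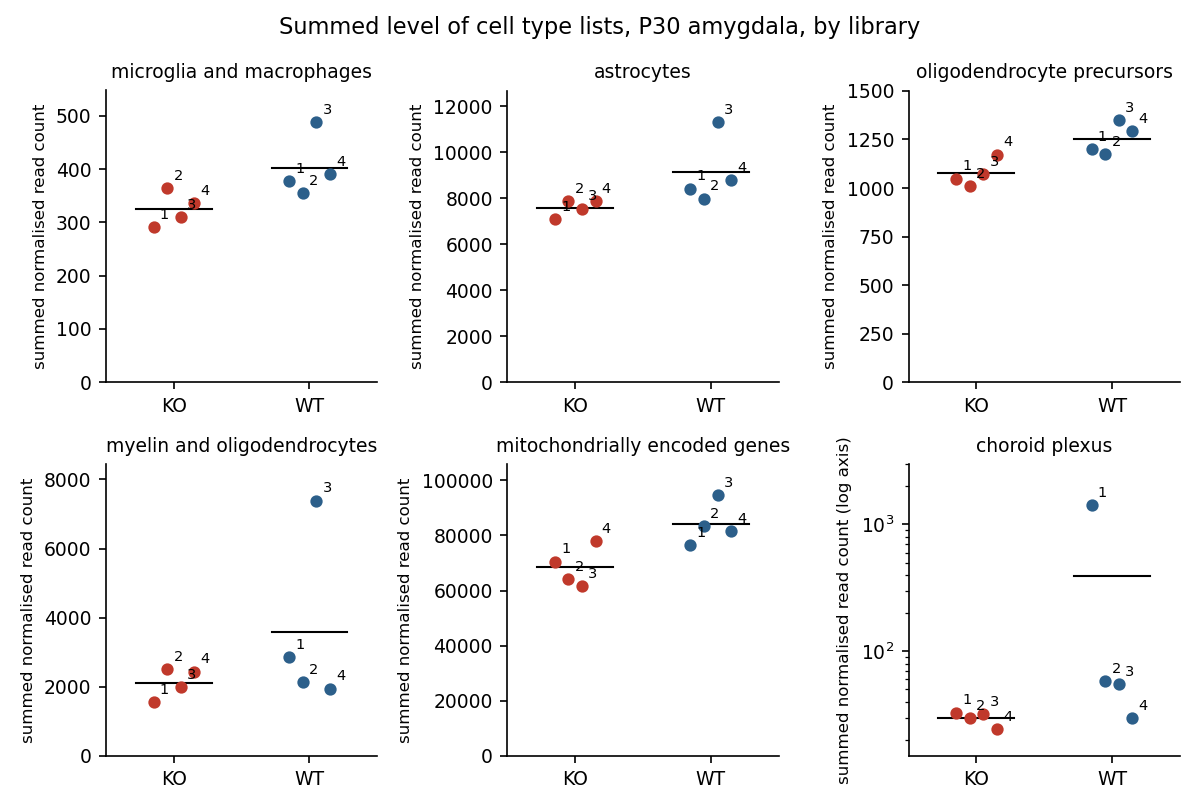
Summed normalised read counts of 6 gene lists in each P30 amygdala library, KO on the left and WT on the right, with replicate numbers beside the points and the group mean as a line; the choroid plexus axis is logarithmic. Astrocyte and oligodendrocyte precursor sums do not overlap, and the myelin and choroid plexus means in WT are set by replicates 3 and 1.

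Glial lists had smaller and larger medians in the other settings. The microglial median was -0.04 (frontal cortex), -0.06 (hippocampus) and 0.01 (P60 amygdala), with 12, 15 and 8 of 18 genes below 0. The astrocyte median was -0.08, -0.01 and 0.01 in the same order, with 13, 9 and 6 of 15 below 0. Oligodendrocyte precursors had -0.04, -0.38 and -0.01, with 6, 10 and 6 of 11 below 0, so their hippocampal median lay further below 0 than that of the P30 amygdala. No test of a list between settings was run. Myelin genes ran from -0.77 in the hippocampus to 0.15 in the frontal cortex.

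Mitochondrially encoded genes lay below 0 in 13 of 14 (median -0.28; 8 with an unadjusted p below 0.05, against 3.87% of all genes, and 7 with KO wholly below WT, against 2.52%). mt-Nd1, a subunit of complex I, was at 5820, 5314, 5172 and 6228 in KO libraries and 6605, 6705, 8128 and 7001 in WT libraries (log2 fold change -0.33). mt-Cytb, the complex III subunit of the mitochondrial genome, was at 7505, 6855, 6836 and 8239 in KO libraries and 8848, 8799, 10397 and 9301 in WT libraries (-0.34). Every KO library was below every WT library for both, and for mt-Co1, a subunit of cytochrome oxidase, the groups overlapped (15086 ± 1538 in KO and 18445 ± 2858 in WT). The median was -0.21 without WT replicate 3 and -0.27 without WT replicates 1 and 3, with 7 genes at an unadjusted p below 0.05 in each (3.22% and 2.49% of all genes in those fits). In the frontal cortex, hippocampus and P60 amygdala it was -0.09, -0.02 and 0.16.

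Excitatory neuron genes and neuronal receptor genes leaned the other way. Of 12 excitatory neuron genes 8 lay above 0 (median 0.18), 4 with an unadjusted p below 0.05 (5.97% of all genes) and 6 with KO wholly above WT (4.12%). The vesicular glutamate transporters Slc17a7 and Slc17a6 averaged 586.4 ± 73.7 and 44.9 ± 24.7 in KO, against 522.5 ± 75.9 and 46.8 ± 19.1 in WT, both with overlap. Neurod2 and Sv2b, chosen after their values were seen, had groups apart. Sv2b was at 409, 494, 443 and 466 in KO libraries and 278, 300, 409 and 304 in WT libraries. Its groups were apart by less than the rounding of these values. Without WT replicate 3 the excitatory median was 0.25, with 3 genes at an unadjusted p below 0.05 (4.68% of all genes in that fit), and without both it was 0.22. Elsewhere it was -0.05 (frontal cortex), 0.24 (hippocampus) and -0.20 (P60 amygdala). Of the 12 genes 8, 2 and 10 lay below 0 there, in that order. Of 14 inhibitory neuron genes 9 lay above 0 (median 0.06, -0.10 without WT replicate 3 and -0.08 without both). The GABA-synthesising enzyme Gad1 was at 223.6 ± 30.1 in KO and 217.2 ± 21.9 in WT, Gad2 at 252.7 ± 23.4 in KO and 269.4 ± 50.9 in WT and the transporter Slc32a1 at 45.5 ± 4.49 in KO and 51.5 ± 9.84 in WT.

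GABA-A receptor subunits, the channels through which GABA inhibits, lay above 0 in 9 of 13 (median 0.25), 5 with an unadjusted p below 0.05 against 5.97% of all genes. Gabra2 averaged 249.9 ± 48.2 in KO and 231.8 ± 71.3 in WT, with overlap. Gabrb2, described above, lies near Mir146 on chromosome 11. Gabra5, on another chromosome, was at 105, 84.1, 90.6 and 104 in KO libraries and 82.3, 72.6, 38.4 and 76.0 in WT libraries (log2 fold change 0.55), with the lowest WT value in replicate 3. Without WT replicate 3 the median was 0.14 and 1 gene had an unadjusted p below 0.05 (4.68% of all genes), and without both it was 0.12 with 0 genes. Glutamate receptors lay above 0 in 14 of 21 (median 0.13, and 0.03 both without WT replicate 3 and without WT replicates 1 and 3). Gria1 was at 648.7 ± 123 in KO and 577.6 ± 177 in WT, Grin1 at 376.6 ± 26.0 in KO and 369.8 ± 10.9 in WT and Grm5 at 461.1 ± 36.9 in KO and 371.3 ± 75.1 in WT. Receptors for serotonin, dopamine, noradrenaline and acetylcholine lay above 0 in 12 of 15 (median 0.17, 0.14 in both fits without the WT libraries and 0.01 without KO replicate 2). Of these, 1 had an unadjusted p below 0.05 and a higher KO mean, against 5.97% of all genes. Their sum was 526 to 630 in KO and 468 to 518 in WT. That sum holds Htr1a, named above for its separate groups, and without Htr1a the sums of the groups overlap. Beside Htr1a, Htr2c averaged 144.4 ± 26.6 in KO and 142.4 ± 22.4 in WT and Drd1 17.5 ± 10.7 in KO and 16.8 ± 11.7 in WT. Drd1, a gene of striatal neurons, was at 33.1 in KO replicate 2 and 33.9 in WT replicate 3 and at no more than 14.4 in the other libraries.

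Notch pathway genes lay below 0 in 16 of 20 (median -0.11, -0.07 without WT replicate 3 and -0.05 without both), with Notch1 and Maml1 as above. Dll1, a Notch ligand, averaged 4.98 ± 0.595 in KO and 4.74 ± 1.67 in WT. Adam10, the protease that cuts Notch at the cell surface, was at 99.8 ± 3.21 in KO and 84.9 ± 1.96 in WT, with the groups apart (log2 fold change 0.23, limma adjusted p = 0.212); it was chosen after its values were seen. Immediate early genes, which follow neuronal activity, lay above 0 in 13 of 18 (median 0.06), with a wide spread and none called. Fos was at 4.83, 11.6, 11.9 and 15.1 in KO libraries and 9.15, 2.93, 18.6 and 10.4 in WT libraries. Arc averaged 48.0 ± 17.7 in KO and 55.4 ± 41.3 in WT, and Egr1 196.6 ± 84.4 in KO and 188.0 ± 123 in WT. Their median was 0.32 without WT replicate 3 and 0.39 without both, but -0.17 without WT replicate 2. Glucocorticoid receptors and responsive genes had a median of 0.09 (8 of 12 above 0), which was 0.16 without WT replicate 3, 0.18 without WT replicates 1 and 3 and -0.00 without WT replicate 2. The receptor Nr3c1 averaged 107.0 ± 11.2 in KO and 100.4 ± 12.3 in WT, the mineralocorticoid receptor Nr3c2 at 101.2 ± 22.1 in KO and 80.0 ± 13.6 in WT and Fkbp5, a glucocorticoid-induced co-chaperone, at 34.1 ± 3.00 in KO and 29.1 ± 4.57 in WT. Cytosolic ribosomal protein genes had a median of -0.03 (-0.00 without WT replicate 3 and 0.01 without both).

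**Figure D5:**
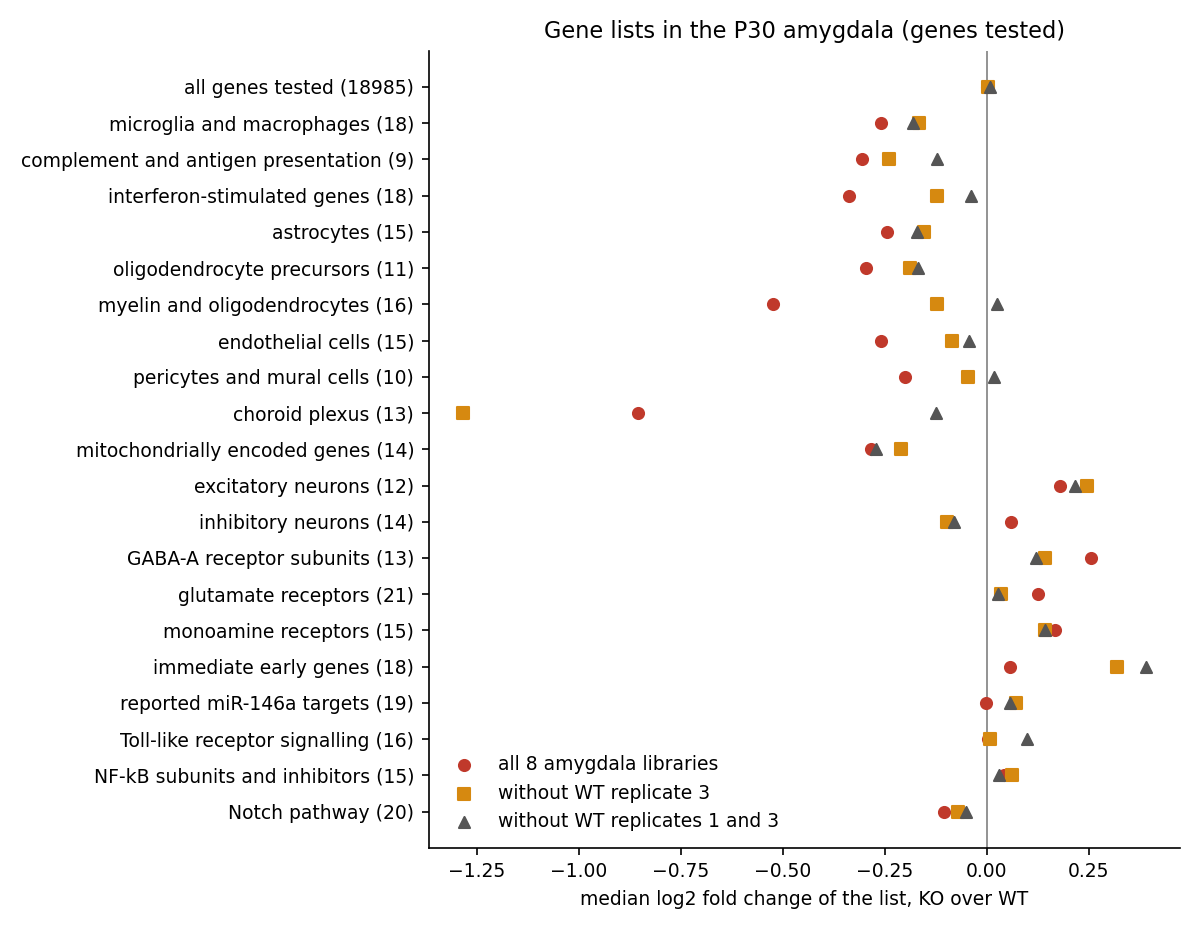
Median log2 fold change (KO over WT) of 20 gene lists and of all genes tested in the P30 amygdala, with the number of genes tested in brackets; red circles use all 8 libraries, orange squares leave out WT replicate 3 and grey triangles leave out WT replicates 1 and 3. Microglial, complement, interferon, astrocyte, precursor, endothelial, choroid plexus, Notch and mitochondrially encoded lists stay below 0 in all 3. They lie nearer 0 without both WT libraries than with all, and the myelin and pericyte lists then lie just above 0.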

How the data were processed

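Gene expression was measured by stranded poly-A RNA sequencing with paired reads, per the labels' protocols. The authors deposited normalised read counts per gene, close to CPM; the decimals return whole reads for 100% of values within 0.1 read, and those recovered reads give the depths. Limma, DESeq, edgeR and the mm9 build are named in the submitters' processing notes with no role; no aligner, counter or annotation is named there. Gene positions come from GENCODE M21 (GRCm38), in which 48144 of 48526 identifiers matched, and were not converted from another build.

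All 24 P30 libraries, in 6 groups of region and genotype, were fitted with limma 3.58.1 in R 4.3.3 (trend and robust variance) on log2(value + 1). Genes needed a value of 10 reads at median depth (1.44) in at least 4 libraries, and 15 reads in all. Adjusted p-values are Benjamini-Hochberg over 18985 genes, two-sided, called under 0.05. A difference between regions is the interaction term of that fit. P60 libraries were normalised separately and fitted alone (19256 genes). Fold changes on this scale understate those of low genes. Fits were tested on simulated data. The design text gives the animals different mothers and says no more of how libraries map to animals, so p-values measure the spread between these libraries.

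The members, gene lists and alternatives were chosen with earlier results of these data known. Genes named are those called, up to 10 per direction with the smallest p among those not called (mean of at least 1, groups apart, no numbered gene models), the first 3 tested of each list described (a few of these are not reported here), Mir146, Traf6, Irak1, Irak2, Notch1 and Numb, and genes within 15 Mb of Mir146; any other gene was picked with its values already known. Transcripts of the 9930111J21Rik copies were aligned with blastn 2.17.0. Embryonic libraries were not used here. The replicate numbers did not pair KO with WT libraries: same-numbered deviations correlated at 0.128, -0.214, -0.132 and 0.18.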

Additional observations from a re-analysis of the deposited data

Results flagged for a closer look

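In groups of 4 libraries, 11 of 138 sets of values had 1 library far from the other 3 (gap over range above Dixon's critical value), which chance gives in about 1 in 20. Most of these libraries were WT replicate 3. It was the high one for myelin genes (summed normalised read count 7387.61, others 1939.21 to 2861.55), striatal genes (964.61, others 432.09 to 491.46), thalamic genes (559.41, others 311.81 to 336.88), pan-neuronal genes (9652.29, others 8488.81 to 8627.97), the reported miR-146a targets (2757.64, others 2367.95 to 2426.25) and Numb (82.28, others 44.38 to 49.15). WT replicate 1 was high for choroid plexus genes (1420.65, others 29.56 to 57.94) and for cell cycle and separase genes (533.17, others 510.5 to 514.29). WT replicate 2 was high for blood cell genes (31.91, others 28.05 to 28.71), and WT replicate 4 for excitatory neuron genes (8030.73, others 6960.24 to 7124.67). Among KO libraries, replicate 1 was low for Bbs4 (43.06, others 44.44 to 44.56).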

How the results depend on the processing

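Against 2 genes called higher and 3 lower, pseudocounts of 0.1 and 0.5, TMM scaling, voom on recovered reads and a correlation between regions gave the same counts. With no filter on low values 5 were higher and 6 lower. With the replicate block 2 were higher and 2 lower, with a sex covariate 3 and 2, and with the amygdala libraries alone 2 and 2. Without each library in turn 2 to 5 were higher, 5 without WT replicate 3, and 2 to 3 lower; without WT replicates 1 and 3, chosen after seeing the data, 1 was higher and 2 lower. Pttg1, 9930111J21Rik2 and Lyrm7 were called in all 18 alternatives, Hint1 in all but the last and Gm2a in 6 (limma adjusted p up to 0.331). For amygdala minus hippocampus 0 genes were called, 1 with the replicate block (Gabra3) and 0 to 1 without a library (1, Nxph3, without KO replicate 3). The cause of these shifts was not tested.

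Signs turned where values lay near 0. Traf6 was at 0.0182 with a sex covariate, 0.0572 without WT replicates 1 and 3 and -0.0656 to 0.0626 without each library. Irak2 was at 0.0624, 0.0546 and -0.0658 to 0.115 in the same settings. Numb was at 0.0384 without WT replicates 1 and 3 and -0.305 to 0.0174 without each library. Of 702 medians of gene lists under alternatives, 12 moved beyond their spread. Of these, 4 moved without KO replicate 2, 3 without WT replicates 1 and 3 and 1 without WT replicate 3. The planned edgeR quasi-likelihood and DESeq2 tests on recovered reads were not run. At this depth a gene of 10 reads is at 1.44, and of 16 cytokines and chemokines 9 fell below the minimum of reads.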

Other observations

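Leaving out 1 library added calls beside Ccng1. Ptgs2 was at 16.6, 15.02, 18.7 and 16.5 in KO libraries and 9.85, 8.78, 19.5 and 9.64 in WT libraries; only WT replicate 3 overlapped the KO range, and without it Ptgs2 was called (log2 fold change 0.76, limma adjusted p = 0.0295), against 0.52 with all libraries. Hs3st4, an enzyme that modifies heparan sulfate, was called in the same fit (0.69, limma adjusted p = 0.0295). Without KO replicate 2, Akain1, an anchoring protein inhibitor, had a log2 fold change of 1.48 (limma adjusted p = 0.0272) and Sertad4 of -0.71 (limma adjusted p = 0.0360). These genes were chosen after their values were seen.

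Regional genes varied within both genotypes, among them Trh, which is part of the hypothalamic sum given above. Trh, the gene of thyrotropin-releasing hormone, was at 2.38 in KO replicate 2 and 1.03 in WT replicate 3, against 24.6 to 57.0 in the other libraries, and neuropeptides and their receptors as a list had a median log2 fold change of 0.02 (9 of 17 above 0), -0.07 without WT replicate 3 and -0.03 without WT replicates 1 and 3. Tnfaip3, an NF-kB feedback inhibitor, was at 6.76, 7.01, 8.39 and 8.22 in KO libraries and 6.19, 4.16, 5.68 and 6.26 in WT libraries. Irak3, an inhibitory member of the kinase family, was at 1.24, 1.13, 0.75 and 1.20 in KO libraries and 1.55, 3.08, 2.75 and 1.29 in WT libraries. The groups were apart for both, and neither was called.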
